A study of Mus musculus with 4 samples.

Results

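The genes described here encode the machinery of fatty acid oxidation, together with PPARA, the nuclear receptor that turns it on, and targets of that receptor. The list holds 37 genes of mitochondrial and peroxisomal fatty acid oxidation, ketone body metabolism and PPARA-dependent lipid handling, chosen by name. It was chosen with earlier results of these data known. Of these, 36 were among the 12883 genes of the input table and 15 among the genes of the immunoprecipitate table, where they had 21 of the 7569 transcripts. Fgf21 was found in the immunoprecipitate alone, and the 22 genes found in the input alone include Cpt1a, Hadha and all 4 genes listed under peroxisomal oxidation.

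Liver of Fto knockout mice was set against liver of wild-type mice, both on a C57/Bl6 background, in RNA immunoprecipitated with an antibody against methylated adenosine (miCLIP) and in the matching input RNA. The 4 samples are 4 groups (Fto knockout immunoprecipitate and input, wild-type immunoprecipitate and input), and the labels state 3 replicates for each. The labels give neither sex, age nor feeding state of the mice, nor how the knockout was made, nor whether each replicate was another mouse, so the p-values may reflect technical spread alone. No value of a single library was analysed here: the measurements are the authors' mean normalized count over libraries and their log2 fold change, with a standard error (SE), for transcripts in the immunoprecipitate and for genes in the input.

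Oxidation of fatty acids in hepatocytes starts when an acyl-CoA synthetase activates them and the carnitine shuttle carries the long chains into mitochondria. There, repeated rounds of dehydrogenation, hydration, oxidation and thiolysis release acetyl-CoA, and the electrons of the dehydrogenation step pass through the electron transfer flavoprotein to its own dehydrogenase in the inner membrane. Very long chains are shortened in peroxisomes, and in fasting the liver turns acetyl-CoA into ketone bodies. PPARA binds fatty acids, pairs with the receptor RXR on DNA at repeats of a hexamer, and raises many of these genes when food is scarce. FTO removes methyl groups from adenosine in RNA, both within transcripts and next to the cap (m6Am), and the cap-adjacent form needs an adenosine as the first transcribed base.

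Because the antibody also binds the cap-adjacent form, the first base of the genes with the lowest p-values in the immunoprecipitate is given here, beside Fabp1, an abundant target of PPARA. Each line gives 30 bases around a RefSeq start site on build GRCm38.p6, read in the direction of the gene, with the start base in capitals.
Ppara, chr15:85735756-85735785, plus strand: cggactaggggcgcgggtctGgagacccac
Etfdh, chr3:79628758-79628787, minus strand: cggaaaccttactggccttcGtgtcctctg
Cpt2, chr4:107923580-107923609, minus strand: tcggtgcccggaagtgccccTgtgggcgga
Acsl1, chr8:46471017-46471046, plus strand: tggggcggggaggagcctgcGgacggggcg
Acsl1, second start, chr8:46490946-46490975, plus strand: taagaagtcaagtatggattGtgtctgcta
Fabp1, chr6:71199859-71199888, plus strand: gcaacagtgggtgacctggcAggcagagct
Of the starts shown, only that of Fabp1 is an A. The RefSeq locus of Ppara begins upstream of the start shown, at chr15:85734910, and its base there was not looked up. The starts were not matched to the transcripts measured in the immunoprecipitate. Among the 33 start sites of the 31 list genes that have a promoter entry, 10 start with A (30.3%), against 34.4% of all 32851 entries. Entries were not found for Decr1, Hsd17b4, Vnn1, Acaa2, Angptl4 and Crat. A RefSeq start need not be the one used in liver.

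The DNA motif that PPARA and RXR bind was searched in the same promoter entries, since it is what many of the listed genes are known to share. The motif was the direct repeat AGGTCANAGGTCA, with up to 2 mismatches, on both strands, from 250 bases before to 50 bases after the start. It lay in 6 of the 33 entries of listed genes (18.2%), against 3.86% of all entries. The best match was in Fabp1, with 1 mismatch, as found in 0.554% of all entries. The matched bases are in capitals, in the direction of the gene, so that a match on the other strand reads as the reverse complement.
Fabp1, chr6:71199804-71199832, plus strand: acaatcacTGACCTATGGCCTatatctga
Plin2, chr4:86670264-86670292, minus strand: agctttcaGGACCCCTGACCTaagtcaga
Cd36, chr5:17835939-17835967, minus strand: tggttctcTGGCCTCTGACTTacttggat
Echs1, chr7:140116484-140116512, minus strand: gcccgctcAGGTCACGGGTCCacccctta
Etfa, chr9:55512300-55512328, minus strand: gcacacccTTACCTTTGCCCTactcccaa
Slc25a20, chr9:108662134-108662162, plus strand: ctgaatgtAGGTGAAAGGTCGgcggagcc
The element of Fabp1 starts 67 bases before the start site and that of Cd36 63 bases before it, while that of Slc25a20 starts 6 bases after the start base. A match describes the letters and does not show that a factor binds there. The hexamer AGGTCA alone, on either strand and also counted inside the repeat, lay in 7 of the 33 entries (21.2%) and in 16.3% of all.

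Facts of the whole series that touch these genes are few. In the authors' deposited table of the input, Fto had a log2 fold change of −1.49 (SE 0.27, DESeq2 adjusted p = 3.52e-04), and its lower value is why the input is taken as knockout over wild type. No header states a direction. The immunoprecipitate is read the same way because its fold changes correlate weakly with those of the input across 778 genes with a mean of at least 10 in both (Spearman 0.17, Pearson 0.13; genes are not independent replicates). Read the other way, every sign given for the immunoprecipitate turns. The median of all features stood at −1.59 in the immunoprecipitate and at 0.02 in the input. Hepatocyte markers were measured for 12 of 13 genes in the input, with a median log2 fold change of 0.09 and a summed mean of 143911 normalized counts, against 1055 for 12 of 13 Kupffer cell and macrophage markers, whose median was 0.07. Medians of the other marker lists in the input were 0.10 for endothelial cells (7 of 7 genes), 0.10 for stellate cells (7 of 7), 0.00 for cholangiocytes (5 of 5), −0.24 for muscle (2 of 5), 0.23 for lymphocytes (2 of 7) and −0.43 for red cells and neutrophils (7 of 7). No adipocyte marker of 5 was among the input genes, and in bulk liver fewer cells of a type and less RNA per cell cannot be told apart.

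In the immunoprecipitate, Ppara and Etfdh were called with fold changes below 0, read as lower in knockout than in wild-type liver. No member was called higher. Among the 12 member transcripts to which the authors gave an adjusted p, 2 were called, both lower. Over the whole immunoprecipitate, 3.79% of the features with an adjusted p were called lower and 0.895% higher. Since the members were chosen with earlier results of these data known, these shares only describe the background and are no test. Calls use the authors' adjusted p under 0.05, with the direction taken from the sign of the fold change. In the immunoprecipitate that p does not follow from fold over SE, so fold and p may not test the same term. A normal p from fold over SE, adjusted over all features, called 5 member transcripts, all lower, where it called 8.01% of all features lower. In the immunoprecipitate the hepatocyte markers had a median of −0.14 over 15 transcripts, and the Kupffer cell and macrophage markers one of 0.33 over 4. That of the red cell and neutrophil markers was −8.78 over 3 transcripts, from −1.40 for Hba-a2 (mean 129.0) to −23.04 for Hba-a1 (mean 12.0). Medians of the other lists measured lay between −2.02 (endothelial cells, 2 transcripts) and −0.07 (adipocytes, 1 transcript). Of all marker transcripts 0 were called, and their part in the result was not tested.

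**Figure D1:**
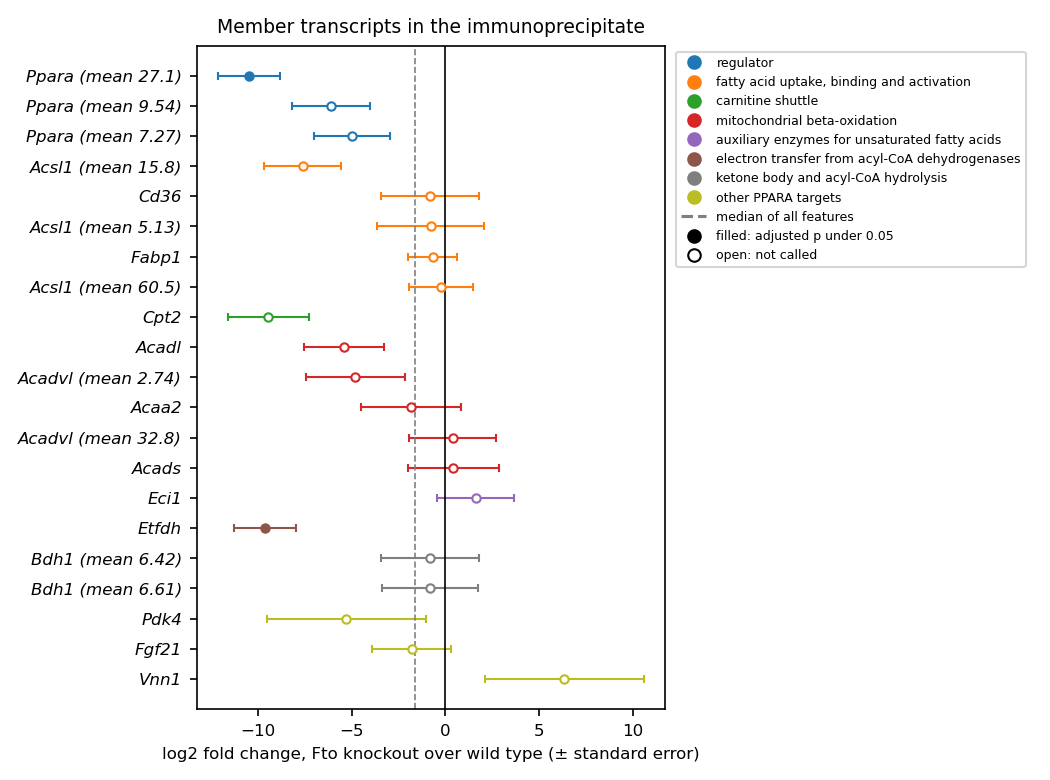
Log2 fold change of each member transcript in the immunoprecipitate, Fto knockout over wild type, with the authors' standard error as bars, grouped by role. Repeated gene names are transcripts of that gene, told apart by their mean normalized count. Filled points, 1 transcript of Ppara and 1 of Etfdh, passed the authors' adjusted p of 0.05. Most points lie left of 0, as does the dashed median of all features at −1.59.

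Ppara, the receptor itself, lies on chromosome 15 (chr15:85734910-85806851, plus strand). Its most abundant transcript, ENSMUST00000057979, had a log2 fold change of −10.47 (SE 1.65, DESeq2 adjusted p = 2.66e-04) at a mean of 27.1 normalized counts in the authors' deposited table. The other 2 transcripts stood at −6.11 (SE 2.07, adjusted p = 0.204, mean 9.54) and −4.97 (SE 2.01, adjusted p = 0.222, mean 7.27) in the authors' deposited table and were not called. All 3 transcripts were below 0 and had an unadjusted p under 0.05. Transcripts of 1 gene share exons, so they are not independent measurements.

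Etfdh, which passes the electrons from the flavoprotein to ubiquinone, lies on chromosome 3 (chr3:79603788-79628767, minus strand). Its transcript ENSMUST00000120992 stood at −9.63 (SE 1.64, DESeq2 adjusted p = 3.86e-04) at a mean of 13.8 in the authors' deposited table. The genes of the flavoprotein itself, Etfa and Etfb, were not found in the immunoprecipitate table, so the step before it has no value there.

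Cpt2, which rebuilds acyl-CoA from acylcarnitine inside the mitochondrion, had a fold change almost as large without being called. It stood at −9.45 (SE 2.16, adjusted p = 0.0896, mean 7.69) in the authors' deposited table. It was the 1 gene of the carnitine shuttle found in the immunoprecipitate. Its fold over SE gave an adjusted p of 5.00e-04, so whether Cpt2 is called depends on which of the statistics is read.

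Sizes such as these leave almost no signal for knockout liver, so they cannot be read as measured folds. If the mean covers 3 libraries of each genotype, the fold and mean of the called Ppara transcript imply a total of 0.114 normalized counts over the knockout libraries, against 163 over the wild-type libraries. For Etfdh the same arithmetic gives 0.105 in knockout and 82.9 in wild-type libraries, and for Cpt2 0.0658 in knockout and 46.1 in wild-type libraries. Each total for the knockout is below 1 count. The values lie in the lower part of the cloud of all features, whose lowest fold change was −25.05. Of the 224 features whose mean was within a factor of 1.2 of the Ppara transcript's, 5 were at or below its fold change, itself included. That is 2.23% of them. For Etfdh it was 41 of 433 such features (9.47%), and for Cpt2 57 of 1011 (5.64%).

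**Figure D2:**
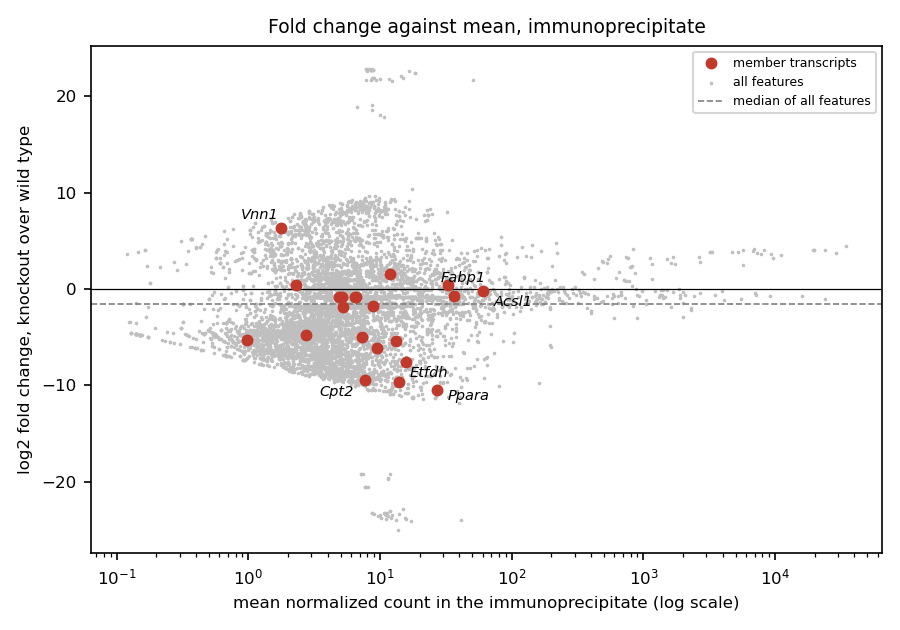
Log2 fold change of every feature of the immunoprecipitate (grey) and of the 21 member transcripts (red), knockout over wild type, against the mean normalized count on a log axis. Names mark the transcript with the highest mean of a gene. Ppara, Etfdh and Cpt2 lie in the lower part of the grey cloud, and the transcripts of Fabp1 and Acsl1 with higher means lie near 0.

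Genes of uptake, binding and activation of fatty acids had 5 transcripts, none of them called. Acsl1, the main acyl-CoA synthetase of liver, had 3 transcripts with unlike values. The most abundant one stood at −0.22 (SE 1.72, mean 60.5), the next at −7.61 (SE 2.07, adjusted p = 0.147, mean 15.8) and the least abundant at −0.79 (SE 2.83, mean 5.13) in the authors' deposited table. The transcript at −7.61 had an unadjusted p of 0.0206 and passed when fold over SE was used (adjusted p = 0.00551). Fabp1, the cytosolic fatty acid carrier of hepatocytes, stood at −0.68 with the smallest SE of the 21 transcripts (1.30, adjusted p = 0.890, mean 36.1) in the authors' deposited table. The membrane transporter gene Cd36 stood at −0.82 (SE 2.59, mean 4.87) in the authors' deposited table. Relative to the median of all features, the values of Fabp1, Cd36 and the most and least abundant Acsl1 transcripts change sign, to 0.92, 0.77, 1.37 and 0.80.

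The value of Cd36 is not particular to that gene. It is shared, within 0.001, by 842 features of the immunoprecipitate. Both transcripts of Bdh1, the mitochondrial enzyme that makes the ketone body beta-hydroxybutyrate, stood at the same −0.82, with means of 6.61 and 6.42 in the authors' deposited table. These 3 values, which become 0.77 relative to the median of all features, cannot be read as changes of their own genes.

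Enzymes of the mitochondrial spiral gave 5 transcripts from 4 of 9 genes, none called. Acadvl, the dehydrogenase of very long chains, stood at 0.38 (SE 2.30, mean 32.8) in its abundant transcript and at −4.79 (SE 2.65, mean 2.74) in the other, in the authors' deposited table. Acadl, the dehydrogenase of long chains, stood at −5.40 (SE 2.12, mean 13.1) with an unadjusted p of 0.524 in the authors' deposited table. Its fold over SE would give an unadjusted p of 0.0110 in place of that value, and the model behind the authors' p is not given in the sources. Acads, the dehydrogenase of short chains, stood at 0.42 (SE 2.43, mean 2.28) and the thiolase gene Acaa2 at −1.82 (SE 2.67, mean 5.25) in the authors' deposited table. Eci1, an isomerase needed for unsaturated fatty acids and listed under its older name Dci, stood at 1.61 (SE 2.07, adjusted p = 0.975, mean 11.9) in the authors' deposited table.

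The remaining targets of PPARA were close to the limit of what the immunoprecipitate measured. Fgf21, the fasting hormone of liver, stood at −1.80 (SE 2.10, adjusted p = 0.711, mean 8.85) in the authors' deposited table. Pdk4, the kinase that shuts pyruvate out of oxidation, stood at −5.27 (SE 4.26, mean 0.968) in the authors' deposited table. Vnn1, a pantetheinase, stood at 6.35 (SE 4.25, mean 1.76) with no p in the authors' deposited table, the highest value of the 21 transcripts. Both SEs are larger than those of the other members.

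Across the 21 transcripts 17 were below 0 (81.0%), against 70.5% of all features. The median was −1.80, which is −0.21 relative to the median of all features, and 11 of 21 were below that median. An unadjusted p under 0.05 was reached by 6 of the 20 transcripts with a p, all lower, where 8.52% of all features with a p did so. These 6 come from Ppara (3 transcripts), Acsl1, Cpt2 and Etfdh. No member reached it upward, where 1.88% of all features did.

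In the input no member was called, and the fold changes of knockout over wild-type liver lay between −0.72 and 0.60. Of 35 members with a p, 0 were called by the authors' DESeq2 adjusted p in either direction, where 5 genes of the whole table were called (0.0389%). An unadjusted p under 0.05 was reached by 4 members, of which Angptl4, Acsl1 and Ppara were lower and Pdk4 was higher. Over all genes 0.979% reached it downward and 1.23% upward. The p from fold over SE likewise called 0 members, and 0.0388% of all genes. SEs of the members ran from 0.20 to 0.30, and all fold changes of the input lay between −1.49 and 1.36, against −25.05 to 22.89 in the immunoprecipitate, so sizes are not compared between the tables.

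**Figure D3:**
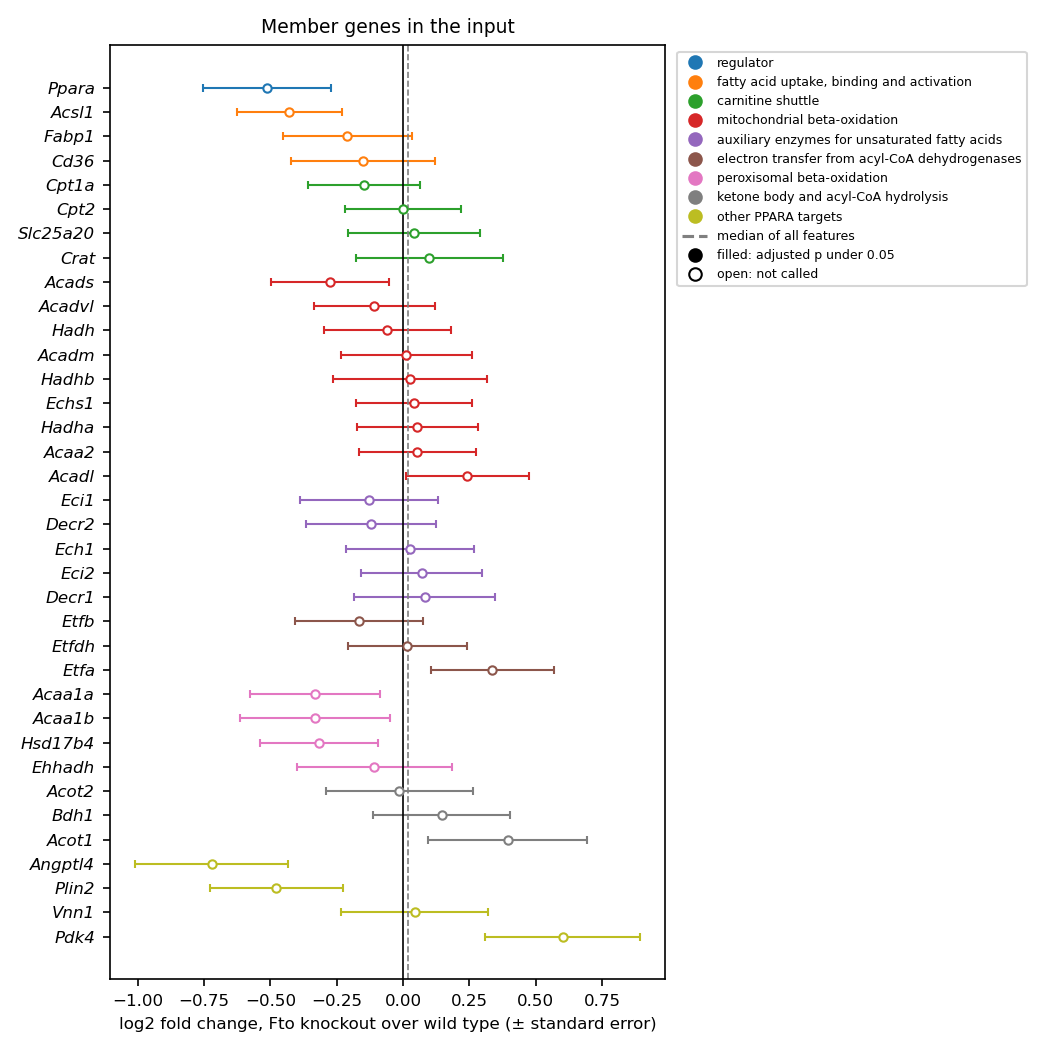
Log2 fold change of the 36 member genes in the input, Fto knockout over wild type, with the authors' standard error as bars, grouped by role. All points are open, since none passed the authors' adjusted p of 0.05. Angptl4 at −0.72 and Pdk4 at 0.60 are the extremes, and the 4 genes grouped under peroxisomal oxidation lie left of 0.

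Ppara and several targets had the lowest values. Ppara stood at −0.51 (SE 0.24, unadjusted p = 0.0335, DESeq2 adjusted p = 0.9998) at a mean of 271.9 in the authors' deposited table, a linear ratio of 0.701. Angptl4, a secreted inhibitor of lipoprotein lipase, stood at −0.72 (SE 0.29, unadjusted p = 0.0122, mean 125.0) in the authors' deposited table, a linear ratio of 0.606. Plin2, the coat protein of hepatocyte lipid droplets listed under its older name Adfp, stood at −0.48 (SE 0.25, unadjusted p = 0.0557, mean 508.1) in the authors' deposited table. Pdk4 went the other way, at 0.60 (SE 0.29, unadjusted p = 0.0390) at a mean of 24.8 in the authors' deposited table, and Vnn1 was at 0.04 (SE 0.28). Targets of the same receptor thus lay on both sides of 0, with a median of −0.22 over these 4.

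Uptake and activation genes were below 0, 3 of 3. Acsl1 stood at −0.43 (SE 0.20, unadjusted p = 0.0302, mean 1336.2), Fabp1 at −0.21 (SE 0.24, mean 2363) and Cd36 at −0.15 (SE 0.27, mean 141.6) in the authors' deposited table. The carnitine shuttle was split. Cpt1a, which makes acylcarnitine at the outer membrane and limits the rate of the pathway, stood at −0.15 (SE 0.21, mean 518.6), and Slc25a20, the carrier across the inner membrane, at 0.04 (SE 0.25) in the authors' deposited table. Cpt2 stood at −7.9e-04 (SE 0.22) and the carnitine acetyltransferase gene Crat at 0.10 (SE 0.28) in the authors' deposited table.

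The mitochondrial spiral sat at the centre of the table. Its 9 genes had a median of 0.03 and ranged from −0.28 (Acads, SE 0.22) to 0.24 (Acadl, SE 0.23) in the authors' deposited table. The trifunctional protein, which carries out the later steps for long chains, has its subunits encoded by neighbouring genes that start head to head on chromosome 5 (Hadha, chr5:30119423-30154980; Hadhb, chr5:30155253-30184593), and these stood at 0.05 (SE 0.23) for Hadha and 0.03 (SE 0.29) for Hadhb in the authors' deposited table. Acadm, the dehydrogenase of medium chains, stood at 0.01 (SE 0.25), which turns to −0.0055 relative to the median of all genes, and Echs1, the hydratase, at 0.04 (SE 0.22) in the authors' deposited table. Acadvl stood at −0.11 (SE 0.23), Hadh, the dehydrogenase of short hydroxyacyl chains, at −0.06 (SE 0.24) and Acaa2 at 0.05 (SE 0.22) in the authors' deposited table. The largest of these 9 values was 1.24 SE in size, that of Acads.

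The auxiliary enzymes lay close together. The 5 genes for unsaturated fatty acids ranged from −0.13 (Eci1, SE 0.26) to 0.08 (Decr1, SE 0.27), with Decr2 at −0.12, Ech1 at 0.03 and Eci2, listed under its older name Peci, at 0.07 in the authors' deposited table. Etfa and Etfb encode the subunits of the electron transfer flavoprotein and stood at 0.34 (SE 0.23) for Etfa and −0.16 (SE 0.24) for Etfb in the authors' deposited table. Etfdh stood at 0.02 (SE 0.22, mean 319.3) in the authors' deposited table, the same gene that was called lower in the immunoprecipitate. Relative to the median of all genes that input value is −0.0019.

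Genes listed under peroxisomal oxidation were below 0, 4 of 4, with a median of −0.32. Acaa1a and Acaa1b, genes of peroxisomal thiolases that both lie on chromosome 9, each stood at −0.33 (SE 0.25 and 0.28), and Hsd17b4, the bifunctional enzyme of branched and very long chains, at −0.32 (SE 0.22) in the authors' deposited table. Ehhadh, the other bifunctional enzyme and a strong target of PPARA, stood at −0.11 (SE 0.29) in the authors' deposited table. None had an unadjusted p under 0.05, and the authors gave no p for Acaa1b. Acaa1a and Acaa1b are close paralogs, as are Acot1 and Acot2, and counting may divide reads between such copies. Acot1 and Acot2, thioesterases of cytosol and mitochondria, stood at 0.39 (SE 0.30, mean 15.7) for Acot1 and −0.01 (SE 0.28, mean 8.88) for Acot2, and Bdh1 at 0.15 (SE 0.26) in the authors' deposited table.

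Over all 36 member genes 19 were below 0 (52.8%), against 46.5% of all genes. Their median was −0.01, against 0.02 for all genes. By role as listed, 8 of 8 genes of the receptor, uptake and peroxisomal groups were below 0. So were 6 of 17 genes of the mitochondrial spiral, the auxiliary enzymes and electron transfer. The auxiliary group includes enzymes that occur in peroxisomes, Decr2 at −0.12, Eci2 at 0.07 and Ech1 at 0.03, so the split depends on how genes were assigned. With Eci2 and Ech1 counted as peroxisomal, that group would lie on both sides of 0. Below 0 in the roles left out were 2 of 4 (carnitine shuttle), 1 of 3 (ketone body and acyl-CoA hydrolysis) and 2 of 4 (other PPARA targets). These groups were joined after their values were seen. No test of a difference between these roles was made.

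Presence in the immunoprecipitate table was then set beside the input level. At an input mean of at least 400, 4 of 13 members had a feature in the immunoprecipitate table, against 77.6% of all 468 genes at that level. Between 100 and 400 it was 8 of 17 members, against 49.7% of all 1689 genes, and between 10 and 100 it was 2 of 5, against 30.3% of all 7144 genes. The 9 members above 400 with no feature were Cpt1a, Hadha, Hadh, Echs1, Ech1, Ehhadh, Acaa1b, Hsd17b4 and Plin2. Rows not in the table were not analysed here, so a member without a feature is not shown to be unbound, and no test was made.

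**Figure D4:**
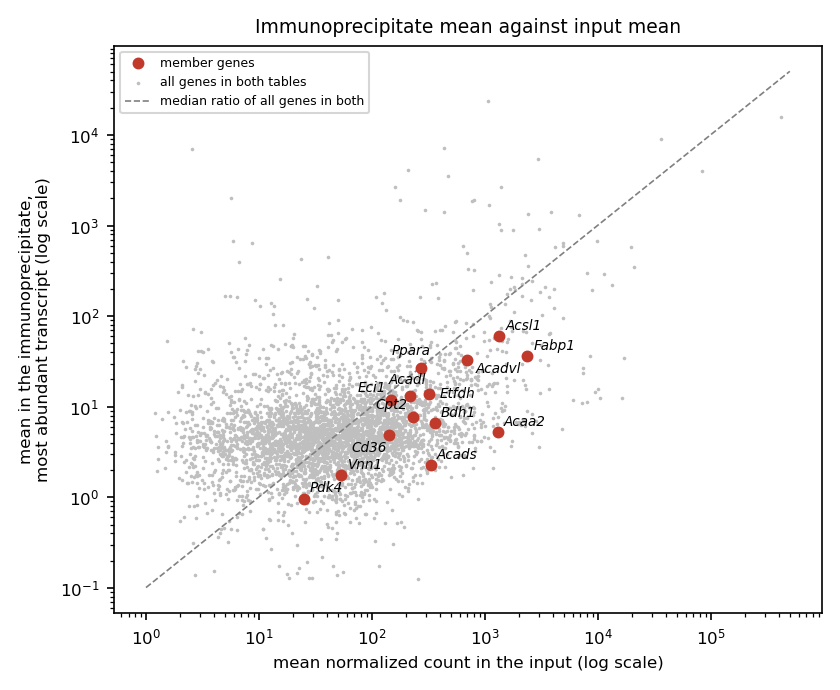
Mean normalized count of the most abundant transcript in the immunoprecipitate against the mean in the input, both on log axes, for the 14 member genes in both tables (red) and all 3929 genes in both (grey). The dashed line is the median ratio of all these genes. All 14 members lie below the line, Ppara nearest to it and Acaa2 farthest.

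For members that had a feature, the ratio of the immunoprecipitate mean to the input mean was set beside that of genes of like input mean, since the ratio falls with input level. The tables were normalized separately, so only differences in the ratio between genes can be read. Between input means of 100 and 400 the 8 members had a median log2 ratio of −4.70, against −4.79 for all 840 genes, and 4 were below that median. Above 400 the 4 members had a median of −5.25, against −5.86 for all 363 genes, with 2 below. Between 10 and 100 the 2 members, Vnn1 and Pdk4, had a median of −4.81, against −2.99 for all 2163 genes, and both were below. The highest ratio among members was that of Ppara, at −3.33, and the lowest that of Acaa2, at −7.96, which only 1.15% of the 3929 genes were below. Acads at −7.19 and Fabp1 at −6.03 were the next lowest, and that of Fabp1 was close to the median of all genes above an input mean of 400.

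Changes in the immunoprecipitate and in the input are given side by side for the 14 member genes in both, with the most abundant transcript standing for each gene. The signs of the immunoprecipitate again rest on its assumed direction. Genes with the lowest immunoprecipitate values are given first. Ppara stood at −10.47 in the immunoprecipitate and −0.51 in the input, in the authors' deposited tables. Etfdh stood at −9.63 in the immunoprecipitate and at 0.02 in the input, and Cpt2 at −9.45 in the immunoprecipitate and at −7.9e-04 in the input, in the authors' deposited tables. Pdk4 stood at −5.27 in the immunoprecipitate and 0.60 in the input, and Acadl at −5.40 in the immunoprecipitate and 0.24 in the input, in the authors' deposited tables. Above 0 in the immunoprecipitate were 4 of the 14 genes. These were Vnn1 at 6.35 (input 0.04), Eci1 at 1.61 (input −0.13), Acads at 0.42 (input −0.28) and Acadvl at 0.38 (input −0.11). Acaa2, Bdh1, Cd36, Fabp1 and Acsl1 lay between −1.82 and −0.22 in the immunoprecipitate. The difference between the tables was not tested, since they were normalized and fitted separately, by transcript and by gene, and their folds span unlike ranges.

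**Figure D5:**
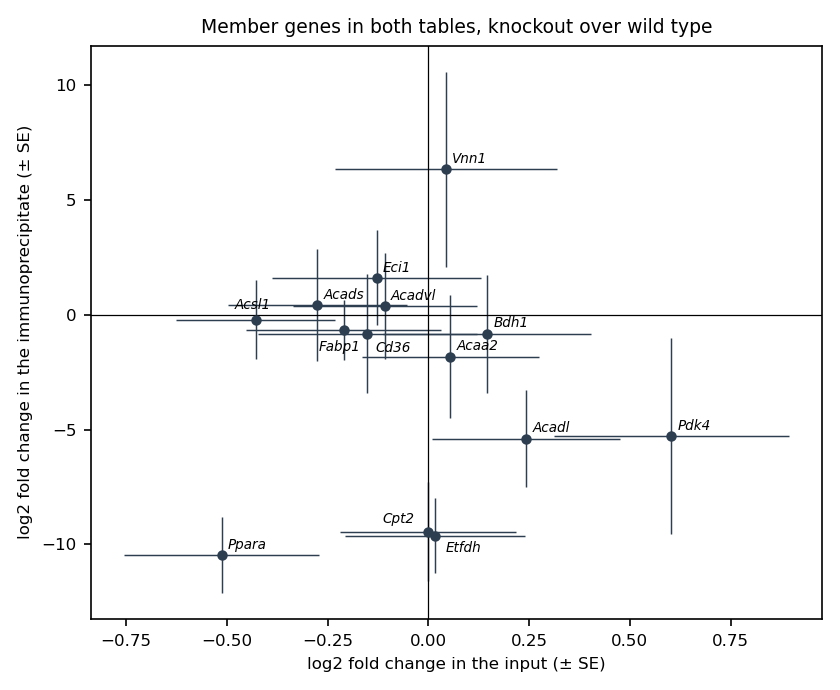
Log2 fold change in the immunoprecipitate against that in the input for the 14 member genes in both tables, knockout over wild type, with the authors' standard errors as bars. The vertical axis spans a far wider range than the horizontal one. Ppara lies low on the left, and Etfdh and Cpt2 lie low at an input change near 0.

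Other genes of the pathway, from a list of 108, gave 1 called transcript in the immunoprecipitate and none in the input. In the immunoprecipitate 52 of the 108 genes had 76 transcripts, 28 of them with an adjusted p, and the 1 call stands against the 3.79% of all features called lower. Scp2, the peroxisomal thiolase and sterol carrier gene, stood at −9.72 in its abundant transcript (SE 1.96, DESeq2 adjusted p = 0.0389, mean 161.8) in the authors' deposited table. Its other transcript stood at 0.96 (SE 2.03, mean 10.6) in that table and was not called. As for Ppara, Etfdh and Cpt2, a value of this size cannot be read as a measured fold. In the authors' deposited table of the input, Scp2 stood at −0.41 (SE 0.26, mean 3691) and was not called. The call on Scp2 ended when the authors' p was adjusted over every feature with a p (adjusted p = 0.101). The next lowest p-values were those of Slc16a1, Txnip and Acadsb. Slc16a1, a carrier of ketone bodies and lactate, stood at −8.50 (SE 1.93, unadjusted p = 0.00436) in the authors' deposited table. Txnip, an arrestin that restrains glucose uptake, stood at −8.54 (SE 2.22) in that table. Its 2 transcripts have identical values there, so they are not independent measurements. Acadsb, a dehydrogenase of branched short chains, stood at −9.97 (SE 2.91) in that table. An unadjusted p under 0.05 was reached by 8 of 65 transcripts downward, where 8.52% of all features did so, and by 0 upward, where 1.88% did. Both Txnip transcripts are counted among the 8.

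In the input 99 of the 108 genes were measured and 0 of the 97 with a p were called. The lowest unadjusted p was that of Creb3l3, a liver transcription factor that works with PPARA, at −0.47 (SE 0.22, unadjusted p = 0.0371), and it was the only one of the list under 0.05, in the authors' deposited table. It was followed by Acad12 at −0.59 (SE 0.30), the stress hormone gene Gdf15 at −0.57 (SE 0.30) and Ppard, a receptor related to PPARA, at 0.51 (SE 0.30) in the authors' deposited table. Of the 99 genes 61 were below 0 (61.6%), against 46.5% of all genes, with a median of −0.07. Among the 31 other peroxisomal genes 20 were below 0, with a median of −0.08, and omega-oxidation genes, mostly of the Cyp4a family, had 2 of 7 below 0 and a median of 0.07.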

How the data were processed

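TRIzol extracts of total liver RNA were DNase-treated and made into miCLIP libraries by iCLIP cloning, per the labels' protocols. Per the submitters' processing notes, mm10, DESeq2, STAR and bedtools 2.25.0 were used, in roles not stated. The deposited tables, 1 for the immunoprecipitate and 1 for the input, hold a mean normalized signal, a log2 fold change, its standard error (also log2), a statistic (a score), a p-value and an adjusted p-value, per the file headers. The counting, the model and the library sizes are not given in the sources, so the depth of each library is unknown, and an adjusted p left as NA by the authors stayed NA. In the input the statistic equalled fold over standard error. In the immunoprecipitate the p was the chi-square tail of the statistic with 1 degree of freedom, and the statistic was not the square of fold over standard error (Spearman 0.83 across features), so fold and p there may not test the same term.

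Deposited gene names were brought to current symbols through gene identifiers (12869 of 12883 in the input matched), which added Dci, Peci and Adfp as Eci1, Eci2 and Plin2. Members and lists were chosen with earlier results of these data known. Every member is accounted for, and of the other pathway genes those called and the 4 with the lowest p in each table are named. Fold over standard error was turned into a normal p and adjusted by Benjamini-Hochberg over all features with scipy 1.17.1 in Python 3.11.15, tested on simulated data. Promoter sequences are RefSeq's, build GRCm38.p6. The alternatives tried were the p adjusted over all features with a p, fold over standard error, a minimum mean of 10, an adjusted p under 0.1, 1 transcript per gene, centring on the median and deposited names alone.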

Additional observations from a re-analysis of the deposited data

How the results depend on the processing

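The count of called members in the immunoprecipitate was 2, or 3 at an adjusted p under 0.1, and 5 with the p from fold over standard error. The transcript added under 0.1 was that of Cpt2. The share of all features under 0.1 was not counted, so that count has no background beside it. For the other pathway genes the count of 1 went to 0 when the authors' p was adjusted over every feature with a p, and to 11 with the p from fold over standard error. The cause was not tested. In the input both counts were 0 under each alternative run. Member medians kept their sign under each alternative run, in the immunoprecipitate from −3.04 at a mean of at least 10 to −0.21 after centring. Centring turned the sign of 7 uncalled values in the immunoprecipitate, Acsl1 (0.80 and 1.37), Fabp1 (0.92), Cd36, Creb3l3 and both Bdh1 transcripts (0.77 each), and of Etfdh (−0.0019) and Acadm (−0.0055) in the input. Deposited names alone, an alternative chosen after seeing the data, left both counts of called members as they were. Leaving out replicates was not possible without values per library. No paired analysis was possible because the tables hold no column per replicate. Means under 10 in 13 of the 21 member transcripts limit what the immunoprecipitate can show.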
